A study of Mus musculus with 14 samples.

Results

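The 36 genes described here encode the sensors, transcription factors and effectors of the unfolded protein response and the folding, degradation and import machinery of the endoplasmic reticulum (ER) in mouse leukemic stem cells. They were taken by name from a list of ER stress sensors, transcription factors, chaperones, degradation and translocon genes, and all 36 were found among the 24463 gene symbols measured. The cells were mouse bone marrow cells depleted of mature lineages, grown in serum-containing medium with stem cell factor and thrombopoietin, and infected with a retrovirus carrying p210 BCR-ABL, the fusion kinase of chronic myeloid leukemia. After 48 hours of culture the infected cells (marked by GFP) that were lineage-negative and positive for c-Kit and Sca1 were sorted and called leukemic stem cells. WT (n = 3) and dKO (n = 3) were untreated cells from control mice and from mice lacking Tcf1 and Lef1, a pair of transcription factors encoded by Tcf7 and Lef1. DMSO (n = 3), PGE1 (n = 3) and PGE2 (n = 2) were leukemic stem cells from control marrow exposed for 6 hours to the solvent dimethyl sulfoxide or to 20 µM of prostaglandin E1 or prostaglandin E2. All 5 groups therefore carried the BCR-ABL retrovirus and had passed through the same growth medium. The sources used here do not give the strain, age or sex of the mice, the way the alleles were deleted, or whether replicates came from separate mice or cultures, so p-values measure the spread between these libraries, which may be technical.

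Secreted and membrane proteins enter the ER through the Sec61 channel and are folded there by chaperones, lectins and disulfide isomerases; those that fail are returned to the cytosol and degraded. When folding falls behind, 3 sensors in the ER membrane signal to the nucleus: IRE1 (Ern1) splices Xbp1 messenger RNA, ATF6 is cleaved to release a transcription factor, and PERK (Eif2ak3) phosphorylates eIF2α, which lowers translation in general but raises that of Atf4. XBP1 and ATF6 act mainly on chaperone and degradation genes, and ATF4 on amino acid supply, redox genes and the factor CHOP (Ddit3). In the myeloid lineage, cells that make granule proteins such as myeloperoxidase load the ER heavily. Gene-level RNA values do not show Xbp1 splicing, ATF6 cleavage or eIF2α phosphorylation, so the results concern transcript levels.

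The promoters of several members hold the known binding elements of these pathways, and those sequences are shown first because calls of the genes that carry them are counted below. Of the 36 members, 31 had an entry in the RefSeq promoter table (mouse build GRCm38.p6); Atf6, Hyou1, Manf, Derl1 and Sec61a1 had none. The 250 bases before the start were searched on both strands. The ER stress response element (CCAAT, any 9 bases, CCACG), the site of ATF6 with the factor NF-Y, was found in 9 of the 31 members (29%), against 35 of 27025 genes in the table (0.13%). The members with it were Hspa5, Hsp90b1, Dnajc3, Creld2, Calr, Canx, Pdia6, Syvn1 and Derl3. The shorter element ERSE-II (ATTGG, any 1 base, CCACG) was found in 1 member, Herpud1, and in 10 genes of the table (0.037%). The element TGATGNAA, of the type bound by ATF4 with C/EBP factors, was in Chac1, Asns and Herpud1, and in 1056 genes of the table (3.91%), so it is common at this length. The element TGACGTGG (UPRE) was in no member window and in 163 genes (0.603%). The sequences below run 5′ to 3′ on the strand of the gene, with the matched element in capitals; an element on the other strand starts with CGTGG and ends with ATTGG (or, for the ATF4 type, starts with TTGCATCA).
Hspa5, chr2:34772004-34772063, + strand: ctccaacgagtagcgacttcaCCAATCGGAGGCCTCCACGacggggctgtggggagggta
Hsp90b1, chr10:86705618-86705677, - strand: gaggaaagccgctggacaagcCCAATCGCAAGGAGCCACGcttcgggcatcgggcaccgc
Dnajc3, chr14:118937806-118937865, + strand: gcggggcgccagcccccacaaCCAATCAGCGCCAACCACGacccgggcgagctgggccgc
Creld2, chr15:88819499-88819558, + strand: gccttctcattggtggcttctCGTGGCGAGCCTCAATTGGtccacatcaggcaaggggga
Calr, chr8:84847055-84847114, - strand: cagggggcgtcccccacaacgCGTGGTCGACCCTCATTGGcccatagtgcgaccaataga
Canx, chr11:50325780-50325839, - strand: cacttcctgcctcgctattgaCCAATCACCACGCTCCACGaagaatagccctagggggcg
Pdia6, chr12:17266470-17266529, + strand: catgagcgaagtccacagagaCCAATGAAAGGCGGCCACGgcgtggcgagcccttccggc
Syvn1, chr19:6046511-6046570, + strand: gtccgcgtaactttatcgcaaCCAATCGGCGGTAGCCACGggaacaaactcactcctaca
Herpud1, chr8:94386352-94386411, + strand: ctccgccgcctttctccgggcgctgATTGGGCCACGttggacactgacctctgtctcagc
Chac1, chr2:119351022-119351081, + strand: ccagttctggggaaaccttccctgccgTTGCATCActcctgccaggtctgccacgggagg
Asns, chr6:7693210-7693259, - strand: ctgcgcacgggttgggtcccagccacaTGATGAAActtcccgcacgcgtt
Not shown are the element of Derl3, a second element of Hsp90b1 (from position -107, on the other strand) and the ATF4-type element of Herpud1. All matches are a description of the letters in each window, and binding was not measured. All values below are FPKM (fragment counts scaled by transcript length and by the library's mapped reads), which allow levels to be compared between genes per length.

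Of the targeted genes, Tcf7 followed the group labels, at 1.48, 1.15 and 1.3 FPKM in WT and 0.142, 0.0219 and 0.135 in dKO. Lef1 was low throughout, at 0.223 to 0.319 FPKM in WT and 0.105 to 0.184 in dKO, and DMSO replicates 2 and 3 (0.181 and 0.166), from control marrow, lay inside the dKO range. Groups were taken from sample titles, and for dKO replicate 1 and DMSO replicate 1 the labelled genotype was the opposite of what the title says; their Tcf7 levels (0.142 and 1.03 FPKM) lay within the ranges of the other libraries with the same title or near them. Reads in genes numbered 19.0 to 20.6 M in the untreated libraries and 11.3 to 13.4 M in the treated ones. dKO replicate 1, DMSO replicate 1 and PGE1 replicate 2 stood apart from their groups: the median difference between replicates was 0.0896 and 0.0925 (log2, pairs with dKO replicate 1) against 0.0592, 0.1098 and 0.1180 against 0.0464 for DMSO, and 0.1745 and 0.1762 against 0.0922 for PGE1. The Y-linked genes Ddx3y, Eif2s3y, Kdm5d and Uty were listed at 0 in every dKO library and at 1.65 FPKM or more in the other groups, so sex and genotype cannot be told apart in dKO against WT. Each of these genes was also higher in every PGE1 library than in any DMSO library (Uty, 3 to 3.57 against 1.79 to 2.5 FPKM). Xist was lower after PGE1 than in DMSO (log2 difference -0.78, limma adjusted p = 0.0169) and than after PGE2 (-1.24, 0.00266). The part of this sex-linked difference in the PGE1 results was not tested. Of the genes for the sorted surface proteins, Kit measured 27.4 to 28.6 FPKM in WT and 20.8 to 25.8 in dKO, and Ly6a (Sca1) 10.4 to 12.6 and 2.86 to 3.53; Cd34, a progenitor marker that was not part of the sort, measured 64 to 67.2 and 34.5 to 37.3. Markers of other cell types also moved with the groups. The 12 monocyte and macrophage markers summed to 840.1 to 880 FPKM in WT and 127.1 to 139.3 in dKO. The 5 megakaryocyte markers summed to 187 to 207 FPKM in WT and 46.05 to 91.53 in dKO, and the 6 mast cell and basophil markers to 216.3 to 236.8 in DMSO and 289.7 to 365.3 in PGE1. The part of these markers in the results was not tested, and the granule genes are given beside the results they move with.

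Members spanned a wide range of levels. By the mean over the 14 libraries, Calr, the calcium-binding lectin chaperone calreticulin, was the most abundant at 846 FPKM, followed by the disulfide isomerase P4hb at 474, the Hsp70-type chaperone BiP (Hspa5) at 407 and the Hsp90-type chaperone Grp94 (Hsp90b1) at 351. The isomerases Pdia3 and Pdia6 averaged 243 and 227 FPKM, and Atf4, the highest of the transcription factors, 205. The sensors were far lower, with Ern1 at 16.7 FPKM, Atf6 at 8.91 and Eif2ak3 at 5.89. Derl3, a degradation gene best known from secretory tissues, was lowest at 0.478 FPKM, with 36 reads over the 3 WT libraries, 68 in dKO, 67 in DMSO, 32 in PGE1 and 23 in PGE2. It lay below the minimum of a mean of 1 FPKM in every fit and was not tested, which left 35 members. Over those 35, the median coefficient of variation between replicates was 1.99% in WT, 4.5% in dKO, 4.85% in DMSO, 8.56% in PGE1 and 2.24% in PGE2. The summed level of all 36 members was 4579 to 4613 FPKM in WT, 5722 to 5784 in dKO, 3830 to 4141 in DMSO, 2307 to 2639 in PGE1, and 4403 and 4340 in PGE2. The groups did not overlap in this sum, with dKO highest and PGE1 lowest.

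**Figure D1:**
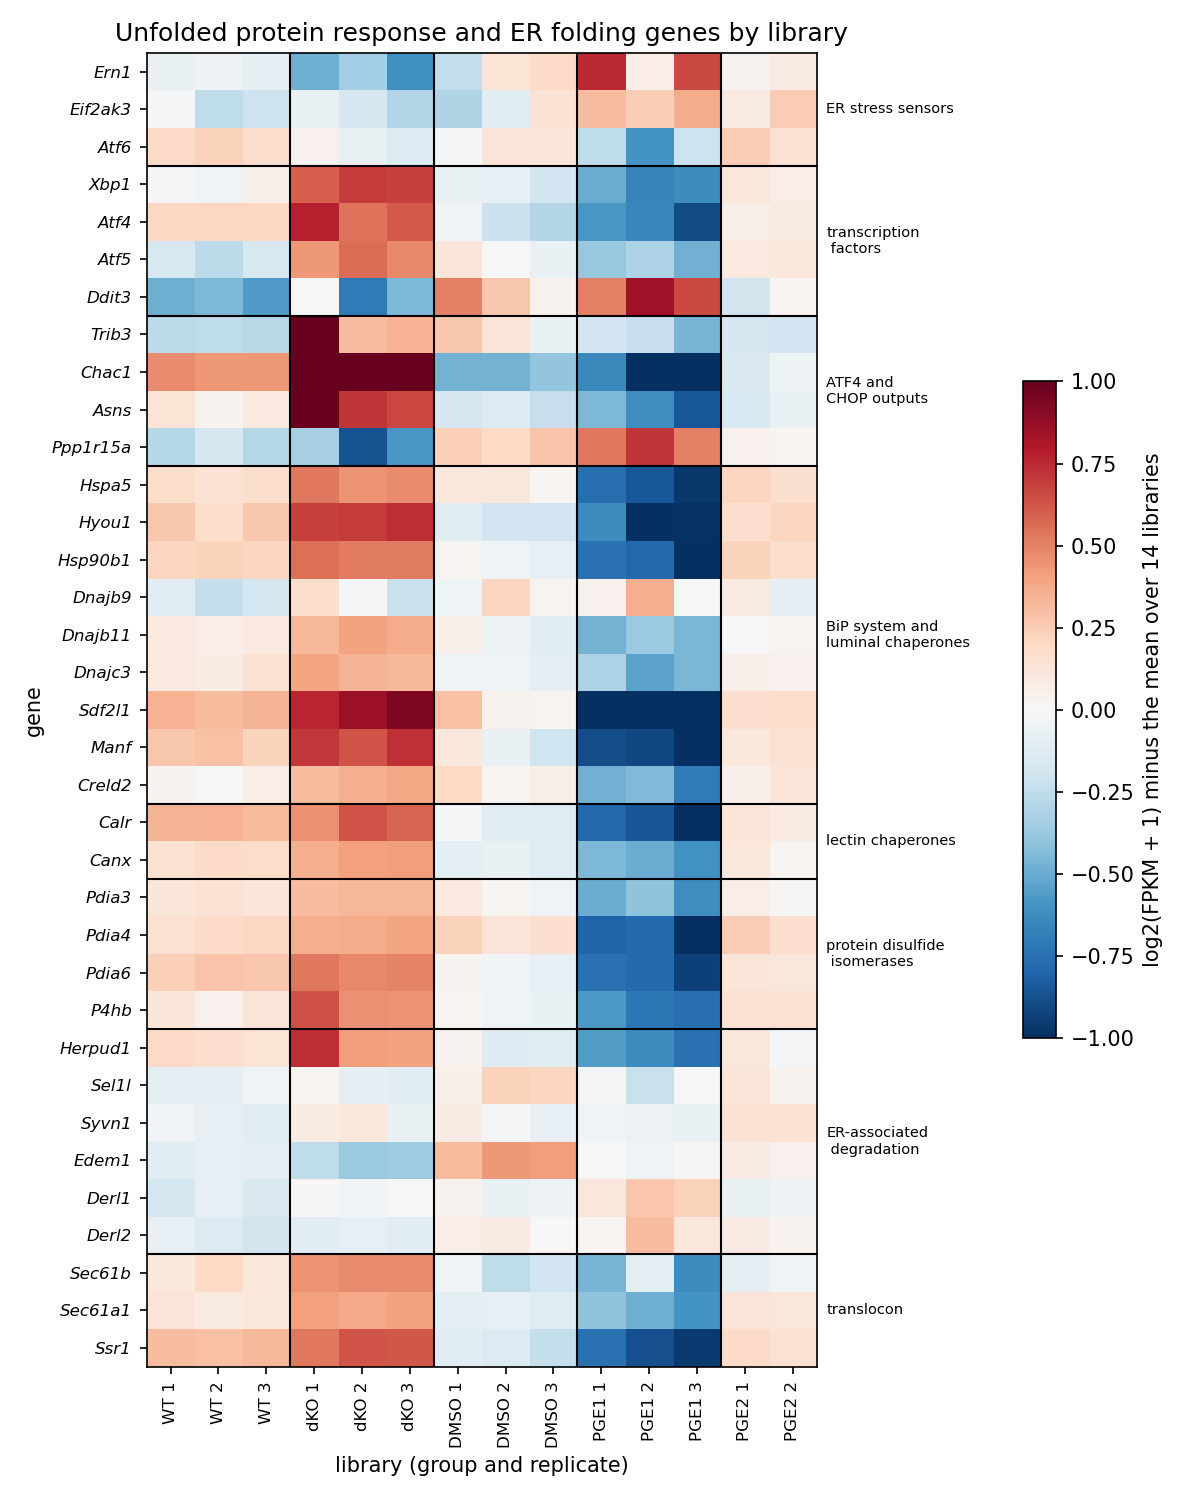
Level of 35 members in each of the 14 libraries, as log2(FPKM + 1) minus the gene's mean over the libraries; rows are genes in blocks by role, columns are libraries, and the colour scale ends at 1 in either direction, so larger differences share the end colour. Derl3 (0.478 FPKM on average) is left out. The folding genes are mostly above their mean in the dKO columns and below it in the PGE1 columns.

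Comparing dKO with WT sets cells lacking Tcf1 and Lef1 beside control cells, where genotype cannot be told apart from sex. Most of the system was higher in dKO cells: 25 of the 35 members tested were higher, 3 were lower and 7 were not called (limma on log2(FPKM + 1), Benjamini-Hochberg adjusted p below 0.05 over all genes tested). Over all genes tested, 18.0% were higher and 22.9% lower. The median log2 difference was 0.28 over the members and -0.01 over all genes. The 8 members with the largest differences all were higher, and 6 of them were transcription factors or ATF4 outputs. In these bulk samples, fewer cells of a type and less RNA per cell cannot be told apart.

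Of the 3 sensors, Ern1 and Atf6 were lower in dKO and Eif2ak3 was not called. Ern1, the kinase and nuclease that splices Xbp1 transcripts, stood at 15.3, 15.5 and 15.1 FPKM in WT replicates 1, 2 and 3 and at 11.2, 12.5 and 10.2 in dKO. The groups did not overlap, and the log2 difference was -0.41 (SE 0.07, limma adjusted p = 0.00272). Atf6 averaged 8.44 FPKM in dKO and 10.2 in WT (log2 difference -0.25, limma adjusted p = 0.0099). Both calls were lost in 1 alternative, the fit over all 14 libraries (adjusted p = 0.0616 for Ern1 and 0.05 for Atf6).

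Of the 4 transcription factors, 3 were higher. Xbp1, which drives chaperone, degradation and secretory genes, measured 115, 113 and 121 FPKM in WT and 177, 190 and 188 in dKO. Every dKO library lay above every WT library, at 1.59 times the WT mean (log2 difference 0.67, SE 0.04, limma adjusted p = 2.81e-05). Atf4, the main transcription factor downstream of eIF2α phosphorylation, measured 224 FPKM in each WT library and 333, 283 and 297 in dKO (log2 difference 0.43, SE 0.06, limma adjusted p = 0.00101). Atf5, a related factor whose translation is also raised by eIF2α phosphorylation, measured 25.7, 23.9 and 25.6 FPKM in WT and 39.3, 42.9 and 40.5 in dKO. Its groups were far apart against their spread (log2 difference 0.68, SE 0.05, limma adjusted p = 3.69e-05). Ddit3, which encodes CHOP, the factor linked to cell death under lasting ER stress, overlapped between the groups at 12.4, 12.8 and 11.7 FPKM in WT and 17.8, 10.5 and 12.8 in dKO (log2 difference 0.12, 95% interval -0.25 to 0.48, limma adjusted p = 0.587).

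Among the 4 outputs of ATF4 and CHOP, 3 had the largest differences of all members. Chac1, which encodes an enzyme that breaks down glutathione, measured 8.52, 8.27 and 8.27 FPKM in WT and 20.4, 16.8 and 15.0 in dKO, 2.08 times the WT mean (log2 difference 0.96, SE 0.10, limma adjusted p = 0.000241). Trib3, a pseudokinase that feeds back on ATF4 and CHOP, measured 10.6, 10.7 and 10.5 FPKM in WT and 28.1, 16.3 and 16.8 in dKO. The high value was that of dKO replicate 1; the log2 difference was 0.84 (SE 0.18, limma adjusted p = 0.00814) with it and 0.60 (adjusted p = 3.27e-05) without it. Asns, asparagine synthetase, measured 55.2, 51.4 and 53.8 FPKM in WT and 103, 83.2 and 80.3 in dKO (log2 difference 0.72, SE 0.09, limma adjusted p = 0.000681). The same library, dKO replicate 1, was the highest within dKO for Atf4, Ddit3, Trib3, Chac1, Asns and Ppp1r15a. It was also the highest for other members, among them Herpud1, P4hb, Hspa5, Hsp90b1 and Dnajc3. For others, among them Xbp1, Atf5, Hyou1, Sdf2l1 and Calr, it was the lowest. Ppp1r15a (GADD34), the phosphatase subunit that reverses eIF2α phosphorylation, differed from the other ATF4 and CHOP outputs. It measured 11.8, 12.9 and 11.8 FPKM in WT and 11.4, 7.52 and 9.4 in dKO. All 3 dKO values were below all WT values, but the gene was not called (log2 difference -0.35, limma adjusted p = 0.0537).

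The folding genes were higher with smaller differences: 8 of 9 members of the BiP system and luminal chaperones, both lectin chaperones and all 4 disulfide isomerases were called. Sdf2l1, a partner of the BiP cochaperones, showed the largest of these, from 199, 195 and 198 FPKM in WT to 265, 284 and 299 in dKO (log2 difference 0.51, SE 0.05, limma adjusted p = 0.000159). Hyou1 (Grp170), a nucleotide exchange factor for BiP, measured 100, 93.7 and 100 FPKM in WT and 134, 135 and 139 in dKO (log2 difference 0.47, SE 0.04, limma adjusted p = 0.000104). Hspa5, the central ER chaperone and the usual readout of this response, measured 440, 429 and 439 FPKM in WT and 560, 530 and 540 in dKO. The lowest dKO library was above the highest WT library, and the mean was 1.25 times that of WT (log2 difference 0.32, SE 0.04, limma adjusted p = 0.000481). The other called folding genes lay between a log2 difference of 0.19 (Pdia4) and 0.42 (Manf, a secreted survival factor held in the ER by BiP). The exception was Dnajb9, a BiP cochaperone that restrains IRE1, at 7.77 FPKM in dKO and 6.83 in WT (log2 difference 0.15, limma adjusted p = 0.232). Calls at the low end depended on settings: Canx and Pdia4 were lost with quantile normalization (log2 differences 0.05 and 0.08), and Calr without WT replicate 3 or with no filter on low values.

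All 3 translocon members were higher in dKO. Sec61b and Sec61a1, subunits of the import channel, averaged 104 and 142 FPKM in dKO and 83.1 and 117 in WT, and Ssr1, a subunit of the translocon-associated protein complex, 60.9 and 49.8. The degradation genes did not follow as a group. Of the 6 tested, Herpud1 (56.9 FPKM in dKO, 44.0 in WT) and Derl1 (31.3 and 28.6) were higher, Edem1, which directs misfolded glycoproteins to degradation, was lower (33.1 and 39.1; log2 difference -0.23, limma adjusted p = 0.00368), and Sel1l, Syvn1 and Derl2 were not called. Derl1 lost its call in 7 of 13 alternatives, among them those without WT replicate 1 or 3 or dKO replicate 2 or 3 (adjusted p up to 0.126). Derl3, untested, measured 0.321, 0.187 and 0.316 FPKM in WT and 0.646, 0.354 and 0.566 in dKO.

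Of 109 other genes of the same pathways, listed by function, 105 were tested in dKO against WT. Of these, 57 were higher and 6 lower, with a median log2 difference of 0.20. The shares over all genes tested were 18.0% higher and 22.9% lower. Amino acid response genes were higher in 12 of 16, with none lower, among them Psph and Mthfd2 (serine and one-carbon metabolism; 45.2 against 26.0 FPKM and 109 against 68.6), and Cth (cystathionine γ-lyase; 17.3 against 4.80). N-glycosylation and glycan quality control genes were higher in 12 of 15, including the cargo receptor pair Lman1 (92.5 against 70.5) and Mcfd2 (55.9 against 40.6). Translocation and signal peptide genes were higher in 15 of 20 and lower in 1, with Ssr2 at 258 against 198 FPKM. Other folding and oxidation enzymes were higher in 6 of 18 and lower in 2, led by Fkbp11 (59.0 against 30.2), a prolyl isomerase of secretory cells. Other degradation genes were higher in 7 of 18 and lower in 1. Other regulators were mixed at 5 higher and 2 lower of 18, and Atf3, a stress-induced factor downstream of ATF4, was lower in dKO at 1.55 against 6.69 FPKM.

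Comparing PGE1 with DMSO asks what 6 hours of prostaglandin E1 do to control leukemic stem cells. The folding machinery was lower after PGE1: 26 of the 35 members tested were lower, 4 were higher and 5 were not called (limma, as above). Over all genes tested, 25.5% were lower and 23.6% higher. The median log2 difference was -0.43 over the members and 0.01 over all genes. The 8 largest differences were all decreases, 7 of them in the folding groups.

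Sdf2l1 decreased most, from 192, 160 and 159 FPKM in DMSO replicates 1, 2 and 3 to 70.6, 57.4 and 47.1 in PGE1. The highest PGE1 library was below the lowest DMSO library, and the DMSO mean was 2.92 times the PGE1 mean (log2 difference -1.54, SE 0.14, limma adjusted p = 4.43e-05). Pdia4, an isomerase with chaperone activity, decreased from 113, 105 and 108 FPKM to 54.9, 55.7 and 46.4 (log2 difference -1.05, SE 0.08, limma adjusted p = 1.91e-05). Hspa5 decreased from 418, 420 and 394 FPKM to 230, 215 and 198. Its DMSO mean was 1.92 times the PGE1 mean, with no overlap (log2 difference -0.94, SE 0.08, limma adjusted p = 3.92e-05). Manf measured 104, 92.5 and 84.3 FPKM in DMSO and 51.8, 51.0 and 43.4 in PGE1 (log2 difference -0.93, SE 0.09, limma adjusted p = 8.55e-05). Hsp90b1, which folds receptors and integrins, measured 341, 326 and 316 FPKM in DMSO and 199, 193 and 164 in PGE1 (log2 difference -0.82). Calr, the most abundant member, measured 792, 743 and 736 FPKM in DMSO and 464, 440 and 400 in PGE1 (log2 difference -0.80). Pdia6, an isomerase that also binds IRE1, measured 222, 212 and 205 FPKM in DMSO and 129, 126 and 113 in PGE1 (log2 difference -0.79). None of these genes overlapped between the groups. Of the 15 folding genes, 14 were lower, and Dnajb9 was not called (8.80 FPKM in PGE1, 8.30 in DMSO, log2 difference 0.07, limma adjusted p = 0.646). Their summed level was 3288, 3116 and 3038 FPKM in DMSO and 1955, 1861 and 1688 in PGE1.

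The transcription factors split. Xbp1 decreased from 111, 110 and 102 FPKM to 82.3, 73.1 and 74.9 (log2 difference -0.49, SE 0.07, limma adjusted p = 0.000496). Atf4 decreased from 189, 167 and 158 FPKM to 129, 123 and 104 (log2 difference -0.53, SE 0.10, limma adjusted p = 0.00225), and Atf5 from a mean of 29.3 to 21.8. Ddit3 went the other way, from 25.6, 21.7 and 18.3 FPKM in DMSO to 25.6, 32.9 and 28.7 in PGE1. DMSO replicate 1 and PGE1 replicate 1 were nearly level; the log2 difference was 0.40 (SE 0.13, limma adjusted p = 0.0305), and the call was lost in 5 of 14 alternatives: with no filter on low values and without DMSO replicate 2 or 3 or PGE1 replicate 2 or 3 (adjusted p up to 0.102). Ppp1r15a, like Ddit3 a gene of the integrated stress response, increased from 17.4, 16.9 and 18 FPKM to 21.5, 24.6 and 21.1 with no overlap (log2 difference 0.34, SE 0.07, limma adjusted p = 0.0036), and it was called in all 14 alternatives.

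The other ATF4 outputs were lower. Chac1 measured 3.93, 3.93 and 4.2 FPKM in DMSO and 3.39, 0.882 and 1.33 in PGE1, so that PGE1 replicate 1 lay close to DMSO and the other 2 far below. Its log2 difference was -0.90 (SE 0.26, limma adjusted p = 0.0186), and the call was lost without DMSO replicate 3 (adjusted p = 0.0534), without PGE1 replicate 3 (0.06) and without DMSO replicate 1 and PGE1 replicate 2 together (0.0797). Trib3 averaged 10.4 FPKM in PGE1 and 14.1 in DMSO, and Asns 32.1 and 44.3. Among the sensors, Eif2ak3 was higher (7.43 against 5.45 FPKM; log2 difference 0.40, limma adjusted p = 0.0191; lost without DMSO replicate 1 or 2 or PGE1 replicate 3, adjusted p up to 0.0589) and Atf6 lower (6.73 against 9.37). Ern1 measured 13.4, 17.8 and 18.5 FPKM in DMSO and 27.7, 16.9 and 26.1 in PGE1: PGE1 replicate 2 lay within the DMSO range and the other 2 above it. It was not called with all libraries (log2 difference 0.47, limma adjusted p = 0.06), and was called without PGE1 replicate 2 (0.68, adjusted p = 0.0023).

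Degradation and translocon genes were more varied. Herpud1, which helps assemble the degradation complex, averaged 24.7 FPKM in PGE1 and 37.2 in DMSO, Edem1 41.5 and 55.0, and Sel1l, the scaffold of that complex, 21.3 and 25.5; these 3 were lower. Derl1, a channel component of the same complex, was higher at 36.5 against 30.8 FPKM (limma adjusted p = 0.0132), while its relative Derl2 (11.7 against 10.9) and the ubiquitin ligase Syvn1 (15.3 against 15.8) were not called. Sel1l lost its call in 5 of 14 alternatives, among them those without DMSO replicate 2 or 3 or PGE1 replicate 2 (adjusted p up to 0.112), and Derl1 without DMSO replicate 2 or 3 (up to 0.0562). Ssr1 (21.6 against 35.7) and Sec61a1 (76.4 against 101) were lower, and Sec61b was not called, with PGE1 replicate 2 at 70.4 FPKM inside the DMSO range of 63.1 to 73.3.

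Of the other pathway genes, 106 were tested in PGE1 against DMSO. In this set 15 were higher and 48 lower, with a median log2 difference of -0.20. The shares over all genes tested were 23.6% higher and 25.5% lower. N-glycosylation genes were lower in 12 of 15 with none higher, including the glucosidase Mogs (21.7 against 56.9 FPKM) and the oligosaccharyltransferase subunit Rpn1 (61.3 against 98.1). Other folding enzymes were lower in 11 of 18 and higher in 1, with Txndc5 at 21.9 against 44.8 and Erp29 at 84.9 against 142. Translocation genes were lower in 9 of 20 and higher in 1. Amino acid response genes were lower in 10 of 16 and higher in 4: the glutamine transporter Slc1a5 (36 against 77.2) and the serine synthesis enzyme Phgdh (9.26 against 22.6) were lower, while the cystine transporter Slc7a11 (41.7 against 17.6) was higher. Among the other degradation genes, 5 of 18 were higher and 1 lower; Edem2 measured 54.9 against 35.2 FPKM. Among other regulators, 4 were higher and 5 lower of 19, near the shares over all genes. The proapoptotic gene Bbc3 (31.6 against 13.6) and the C/EBP factor Cebpb (295 against 132) were higher, and Atf3 was lower (9.06 against 18.1).

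**Figure D2:**
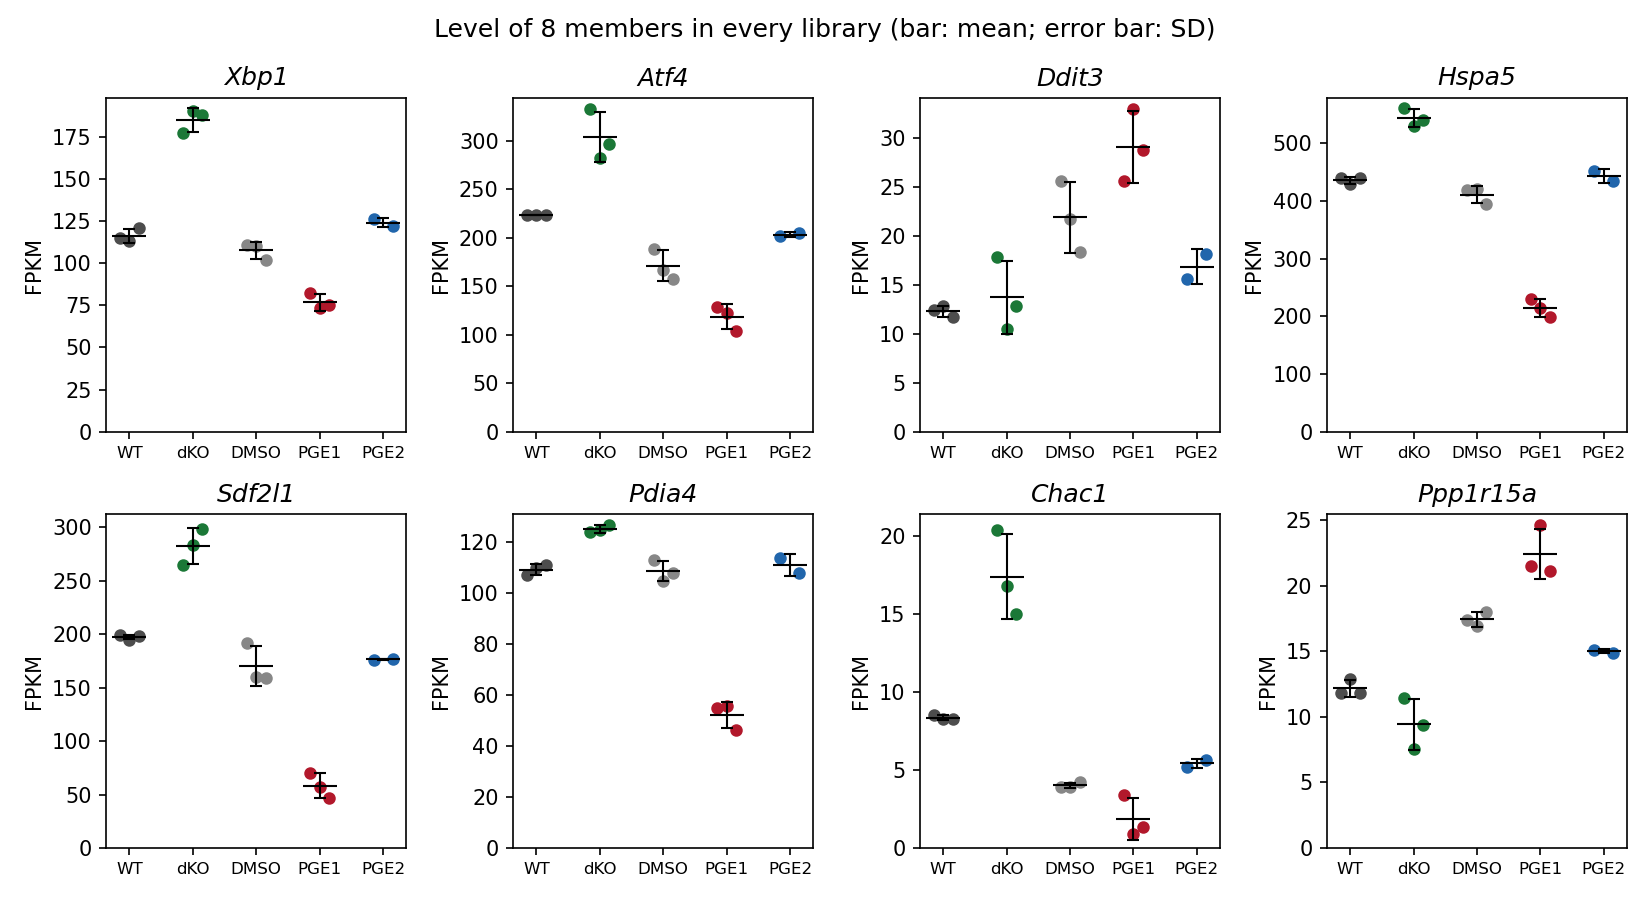
FPKM of 8 members in every library (points), with the group mean (bar) and SD (error bar); n = 3 in each group except PGE2 with 2. Hspa5, Sdf2l1 and Pdia4 are highest in dKO and lowest in PGE1, while Ddit3 and Ppp1r15a are highest on average in PGE1.

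Comparing PGE2 with DMSO asks the same of prostaglandin E2, which has an additional double bond in its carboxyl side chain compared with PGE1. At the same 20 µM and 6 hours, 1 of the 35 members tested was higher (Ssr1), 1 was lower (Edem1) and 33 were not called. Over all genes tested, 0.996% were higher and 4.57% lower. The median log2 difference was 0.11 over the members and 0.01 over all genes. Edem1 decreased from 52.2, 56.8 and 56.0 FPKM in DMSO to 44.1 and 43.0 in PGE2 (log2 difference -0.33, SE 0.06, limma adjusted p = 0.0199), and Ssr1 increased from 37.2, 36.2 and 33.8 FPKM to 45.9 and 44.6 (log2 difference 0.34, SE 0.08, limma adjusted p = 0.0435). Both were free of overlap, and both calls were lost when either PGE2 library, DMSO replicate 2 or DMSO replicate 3 was left out (Ssr1 also without DMSO replicate 1), with adjusted p up to 0.225 for Edem1 and 0.297 for Ssr1.

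The central members were not called after PGE2, a group of 2 libraries. In simulated data this comparison recovered 2% of 1.2-fold changes and 70% of 1.5-fold changes, so small differences could be missed. The simulation gave every group the same spread between replicates, which these libraries did not have, so the rates are only a rough guide. Hspa5 measured 452 and 435 FPKM in PGE2, against 394 to 420 in DMSO (log2 difference 0.11, 95% interval -0.10 to 0.32). Sdf2l1 measured 176 and 177 FPKM, inside the DMSO range of 159 to 192 (log2 difference 0.06, 95% interval -0.29 to 0.41). Xbp1, at 126 and 122 FPKM, lay above all DMSO libraries without passing the threshold (log2 difference 0.20, 95% interval 0.03 to 0.38, limma adjusted p = 0.178). Atf4, at 202 and 205, did so too (log2 difference 0.25, limma adjusted p = 0.244). Ddit3, at 15.6 and 18.1 FPKM, lay below all DMSO libraries (log2 difference -0.35, limma adjusted p = 0.212). In all, 16 of the 35 members lay above every DMSO library and 4 below, where 25.0% and 24.1% of all genes tested did so. Of the other pathway genes, 5 of 106 were higher and 4 lower, where 0.996% of all genes tested were higher and 4.57% lower. Creb3, a relative of ATF6 (11.1 against 16.6 FPKM), and Bbc3 (9.49 against 13.6) were among the lower and Ssr3 (124 against 102) among the higher.

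The direct comparison of the prostaglandins used the same fit, at matched dose and time, as 1 pair of compounds. Of the 35 members tested, 24 were lower after PGE1 than after PGE2, 3 were higher and 8 were not called; over all genes tested, 26.7% were lower and 27.2% higher. The median log2 difference was -0.55 over the members and 0.02 over all genes. The 8 largest differences were Sdf2l1 (-1.60), Chac1 (-1.26), Manf (-1.11), Hyou1 (-1.09), Pdia4 (-1.08), Hsp90b1 (-1.05), Hspa5 (-1.05) and Ssr1 (-1.03), all lower after PGE1. Hyou1 measured 53.2, 38.5 and 41.4 FPKM after PGE1 and 93.4 and 96.4 after PGE2 (limma adjusted p = 0.000118), and Ssr1 23.4, 21.3 and 20.1 against 45.9 and 44.6 (limma adjusted p = 2.3e-05). Hspa5, with values given above, had a PGE2 mean 2.07 times the PGE1 mean (SE 0.09 on the log2 scale, limma adjusted p = 3.91e-05). Ddit3 (log2 difference 0.75, limma adjusted p = 0.0024), Ppp1r15a (0.55, 0.000469) and Derl1 (0.27, 0.0113; up to 0.0828 without either PGE2 library) were higher after PGE1. Members not called included Trib3 (log2 difference -0.11, 95% interval -0.37 to 0.14) and Edem1 (-0.07, 95% interval -0.21 to 0.07), the latter lower than DMSO after either prostaglandin. Sec61b had an interval of -0.65 to -0.01 (limma adjusted p = 0.0772). Among the other pathway genes, 20 of 106 were higher after PGE1 and 54 lower, with Fkbp11 at 4.91 FPKM after PGE1 and 27.3 after PGE2.

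**Figure D3:**
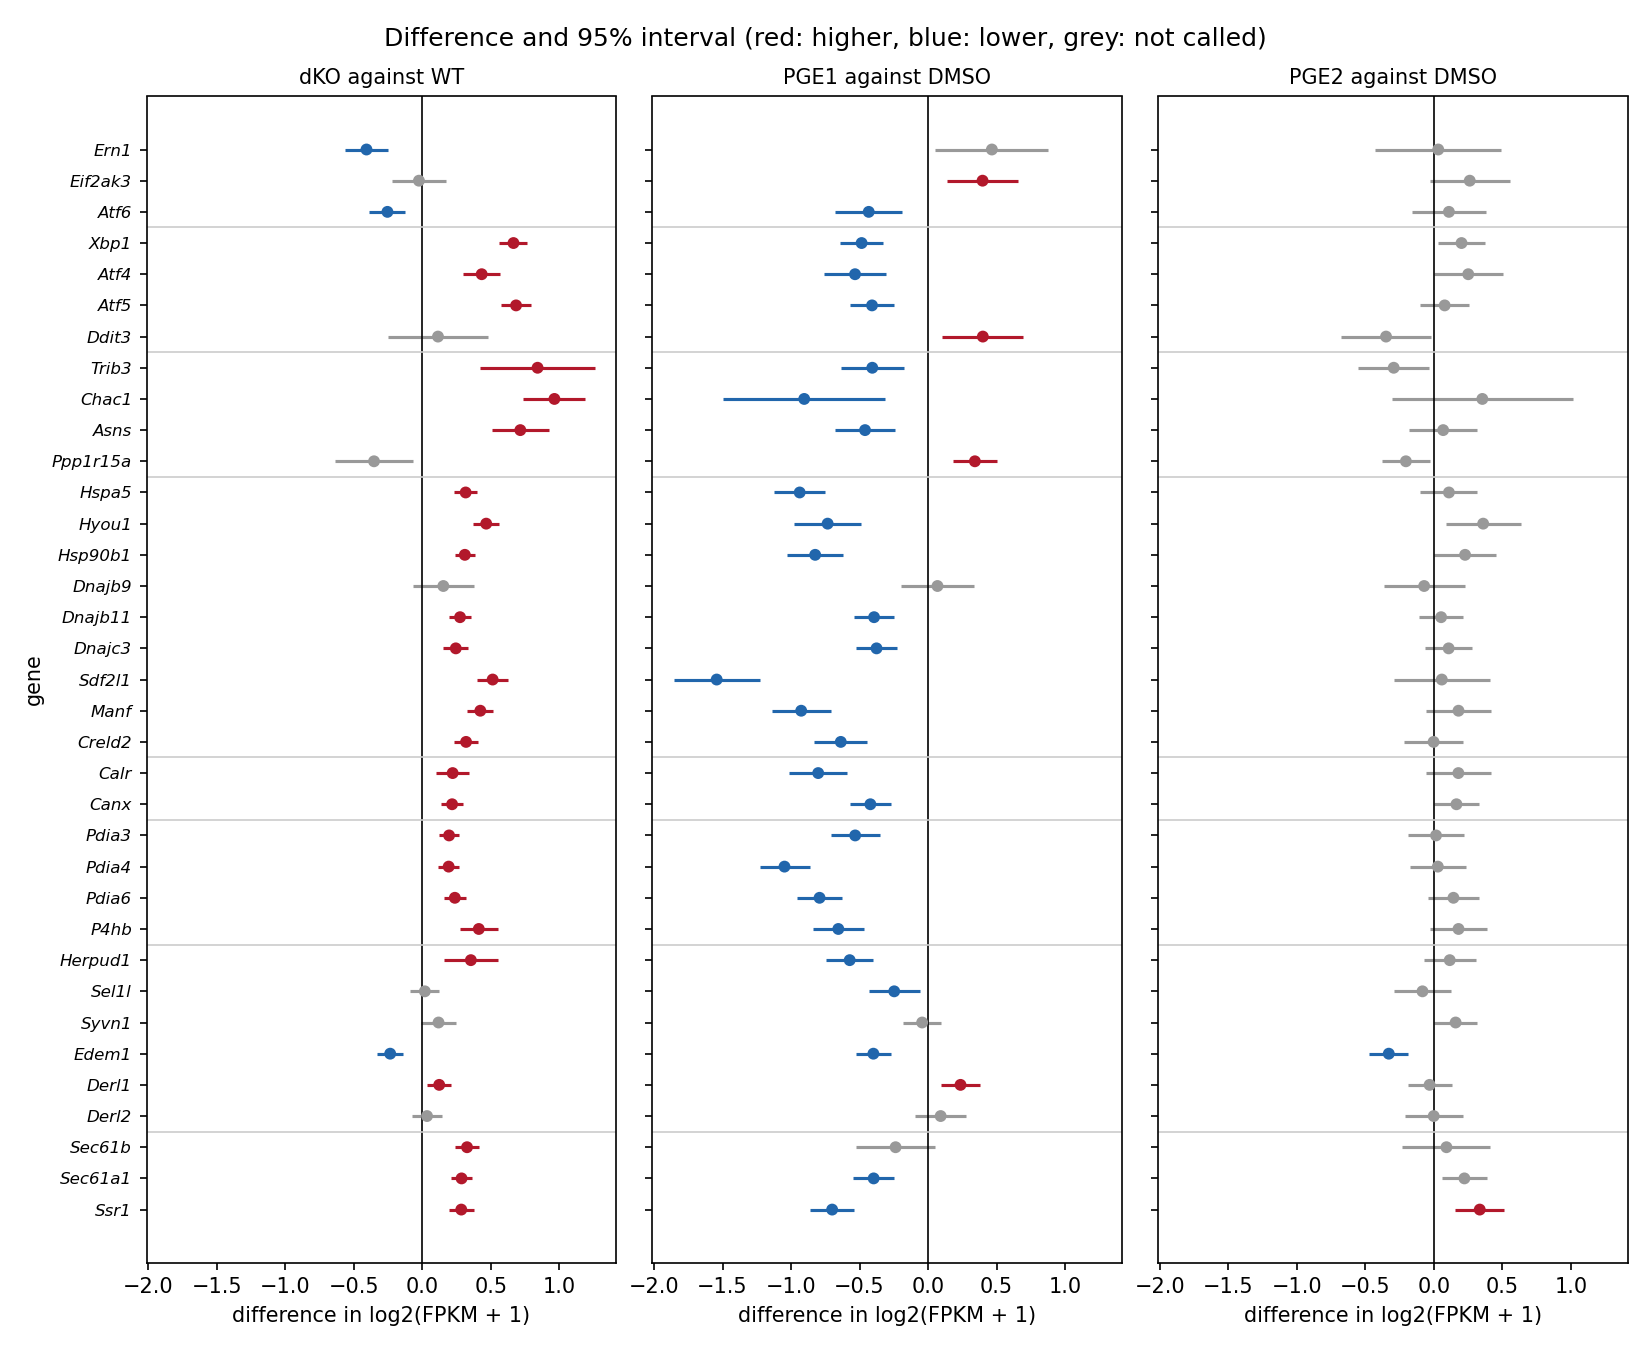
Difference in log2(FPKM + 1) with its 95% interval for each of 35 members in dKO against WT, PGE1 against DMSO and PGE2 against DMSO; red points were called higher, blue lower and grey not called, and Derl3 is left out as untested. Most points lie right of 0 in dKO against WT (25 called higher), left of 0 in PGE1 against DMSO (26 called lower), and near 0 in PGE2 against DMSO (33 not called).

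Some members also differed between the solvent control and untreated WT cells. In DMSO against WT, 8 of 35 members were higher, 15 lower and 12 not called, where 26.0% of all genes tested were higher and 30.7% lower; the median was -0.12 over the members and -0.03 over all genes. These groups differ in the additional culture, the solvent and the sequencing depth, which cannot be told apart. Chac1 was lower (8.52, 8.27 and 8.27 FPKM in WT; 3.93, 3.93 and 4.2 in DMSO; log2 difference -0.90, limma adjusted p = 7.29e-06), as were Ssr1 (-0.47), Calr (-0.41), Hyou1 (-0.41) and Atf4 (-0.39). Ddit3 was higher, with every DMSO library (18.3 to 25.6 FPKM) above every WT library (11.7 to 12.8; log2 difference 0.77, limma adjusted p = 0.000444), as were Ppp1r15a (0.48) and Edem1 (0.48). Hspa5 and Xbp1 were not called (log2 differences -0.09 and -0.11, limma adjusted p = 0.176 and 0.0956). Of the other pathway genes, 20 of 106 were higher and 47 lower; Atf3 measured 18.1 FPKM in DMSO and 6.69 in WT, Slc7a11 17.6 and 1.92, and Shmt2, the mitochondrial serine hydroxymethyltransferase, 79.1 and 124. The DMSO libraries also serve as the control for both prostaglandins, and the WT libraries as that for dKO.

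The dKO and PGE1 comparisons share no library, and their calls can be set side by side. Of the 25 members higher in dKO, 23 were lower after PGE1: Xbp1, Atf4 and Atf5, the ATF4 outputs Trib3, Chac1 and Asns, the 14 called folding genes, Herpud1, Sec61a1 and Ssr1. These 23 were 92.0% of the members higher in dKO and 88.5% of the 26 lower after PGE1. Over the 10566 genes tested in both fits, 964 were higher in dKO and lower after PGE1, which was 50.9% of the 1893 higher in dKO and 35.2% of the 2741 lower after PGE1. Derl1 was higher in both comparisons and Sec61b was not called after PGE1. The sensor Atf6 and the degradation gene Edem1 were lower in both. Eif2ak3, Ddit3 and Ppp1r15a were higher after PGE1 and not called in dKO. Dnajb9, Syvn1 and Derl2 were called in neither. Of the 8 tested members with an ER stress response element in the promoter window, 7 were higher in dKO, all but Syvn1. After PGE1, 7 were lower, again all but Syvn1. Among all genes tested, 18.0% were higher in dKO and 25.5% lower after PGE1. Among the 35 members tested, with or without the element, these shares were 71.4% and 74.3%. Of 26 other genes with the element in the table, 19 were in the files and 4 were tested (Adcy3, Alg12, Hnrnpa3 and Pan2); none was higher in dKO and 2 were lower, and after PGE1 Adcy3 was lower and Pan2 higher.

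The primary granule genes encode Mpo, Elane, Prtn3 and Ctsg, proteins folded in the ER of myeloid progenitors. In dKO against WT and PGE1 against DMSO they differed in the same direction as most of these members. Their summed level was 7053, 6710 and 6977 FPKM in WT and 9135, 9986 and 9694 in dKO, and 4518, 3830 and 3772 in DMSO, 1854, 1094 and 907.9 in PGE1, and 5714 and 5801 in PGE2. All 4 were higher in dKO than in WT, with log2 differences from 0.33 (Mpo) to 0.68 (Prtn3), and all 4 were lower after PGE1 than after DMSO, from -1.04 (Prtn3) to -2.31 (Mpo). None was called after PGE2 (Mpo, log2 difference 0.55, limma adjusted p = 0.428). In DMSO against WT the 2 sets were less alike. All 4 granule genes were lower, from -0.64 (Prtn3) to -0.91 (Mpo), while the median over the members was -0.12 and Hspa5 and Xbp1 were not called. The 15 folding genes summed to 3682 to 3711 FPKM in WT, 4540 to 4573 in dKO and 3513 and 3451 in PGE2, so the 5 groups had the same order in both sums. The part of the granule genes in the result was not tested. The 5 late granule genes had another pattern: they summed to 375.7 to 391.2 FPKM in WT and 215.2 to 277 in dKO, and to 325.7 to 393.7 in DMSO, 188.8 to 269.8 in PGE1 and 499.6 to 538.6 in PGE2, so their dKO sums lay below those of WT, while the primary granule sums lay above. Plasma and B cell markers, which mark another type of secretory cell, were low in all groups: 7 genes summed to at most 15.11 FPKM in WT, 9.2 in dKO, 19.78 in DMSO, 30.82 in PGE1 and 12.91 in PGE2.

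**Figure D4:**
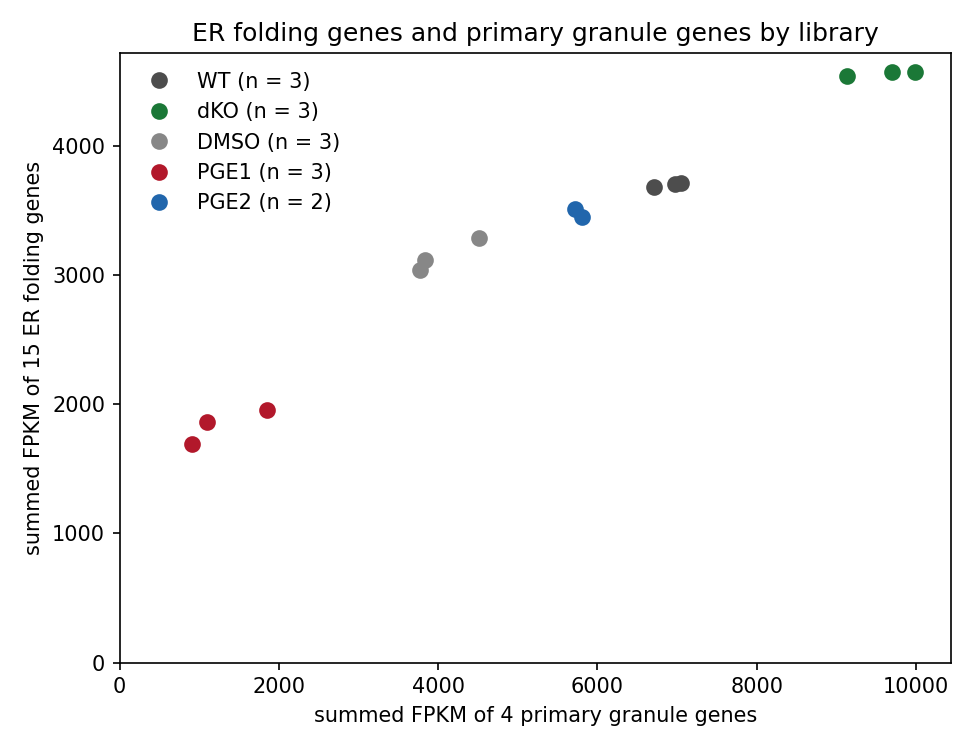
Summed FPKM of 15 ER folding genes (vertical axis) against summed FPKM of the 4 primary granule genes (horizontal axis), 1 point per library, coloured by group. PGE1 libraries lie lowest on both axes (1688 to 1955 and 907.9 to 1854) and dKO libraries highest (4540 to 4573 and 9135 to 9986).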

How the data were processed

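RNA-seq of 14 libraries was used. The authors deposited 1 FPKM table per library with 24463 gene symbols, made with CASAVA 1.8, TopHat and Cufflinks on mouse build mm9, per the submitters' processing notes. The sources used here do not give strand handling, annotation or how reads shared between genes were counted. FPKM steps gave back whole reads for 100% of the 19057 genes with reads (within 0.001 read); these served to give depth and read numbers, and intervals on reads cover counting error only.

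Groups came from sample titles. Values were turned into log2(FPKM + 1), a scale that understates changes of low genes, and genes averaging under 1 FPKM in the fitted libraries were dropped. Moderated linear models (limma 3.58.1, R 4.3.3, trended eBayes) gave two-sided p-values, adjusted by Benjamini-Hochberg over all genes kept, with a threshold of 0.05. Fits were WT with dKO, the 8 treated libraries together, and WT with DMSO. Folds are ratios of mean FPKM. The fits were tested on simulated data with 200 changed genes and the same spread between replicates in every group. Alternatives changed the pseudocount, the filter, the scaling, the block, the libraries fitted and each library left out; leaving out DMSO replicate 1 and PGE1 replicate 2 together was chosen after seeing the data.

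The members and lists were chosen with earlier results of these data known. Xbp1, Atf4, Ddit3 and Hspa5, and per comparison the 8 called members with the largest differences, are given by library; up to 4 genes with the smallest p per other list are named. Ern1 and Ppp1r15a in dKO, and Sec61b after PGE1, were singled out after their values were seen. Adgre1, Jchain and Mzb1 were matched under older symbols. Promoters came from RefSeq (GRCm38.p6); no coordinates were joined to the files. A planned search of protein ends was not used here. Other steps ran in Python 3.11.15 (pandas 2.3.3, numpy 2.4.6, matplotlib 3.10.9).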

Additional observations from a re-analysis of the deposited data

How the results depend on the processing

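The counts of members called in dKO against WT, PGE1 against PGE2 and DMSO against WT, and the 26 members lower after PGE1, stayed within 1.5 times their value in every alternative run. Leaving out 1 library at a time gave 1 to 4 members higher in PGE1 than in DMSO (main value 4; 1 without DMSO replicate 2, and 2 without DMSO replicate 3 or PGE1 replicate 3), 0 members higher in PGE2 than in DMSO in each case (main value 1), and 0 to 1 lower (main value 1). Members higher in PGE2 numbered 0 with no filter on low values, 0 with quantile normalization, 0 with the replicate block and 3 in one fit over all 14 libraries; members lower in PGE2 numbered 0 with the replicate block and 2 without DMSO replicate 1 and PGE1 replicate 2 together. Where a PGE2 count was 0, 1 to 7 members were higher and 1 to 4 lower at an unadjusted limma p below 0.05. Other settings gave more at this level. With median-of-ratios scaling 9 were higher and 3 lower, and in one fit over all libraries 11 and 1. Without DMSO replicate 1 and PGE1 replicate 2 together, 13 were higher and 3 lower. Pdia4 in DMSO against WT turned from a log2 difference of -0.01 to 0.11 with quantile normalization; the cause was not tested. Over all genes, dKO against WT had 1930 higher and 2451 lower calls, 2783 and 1843 with quantile normalization, and 2702 and 2110 with median-of-ratios scaling; PGE2 against DMSO had 112 and 514, 26 and 243 with the replicate block, 432 and 775 in one fit over all libraries, and 689 and 1074 without the pair of libraries named above. Same-numbered replicates did not deviate together (correlations from -0.268 to 0.262), so the numbers were not taken as pairs; beyond the PGE2 calls, the replicate block ended those of Derl1 in dKO against WT, Sel1l in PGE1 against DMSO and Syvn1 in PGE1 against PGE2. Derl3, with 23 to 68 reads per group, lay below the minimum level and was not tested.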
